A study of Mus musculus with 15 samples.

Results

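The ATF4 amino acid stress response is described here as a module of 35 named genes, measured in mouse liver after Roux-en-Y gastric bypass. A gene entered if the array's probe table named it on a transcript cluster, the array's probe set for one transcript, that carried a single gene symbol. Where a gene had several such clusters, the one with the highest mean over the 15 arrays was used. This gave values for 32 of the 35 members, out of 22180 genes measured in all. Slc6a9, a glycine transporter, was named only on a cluster that also carried another symbol. Pycr1, which completes proline synthesis, and Gdf15, a secreted stress hormone, were named on no cluster, alone or with another symbol. These 3 members have no value here. The measured members were 8 of 8 transcription factors, 7 of 8 amino acid transporters, 7 of 8 enzymes of serine, one-carbon and proline synthesis, 4 of 4 other amino acid and glutathione enzymes, and 6 of 7 stress regulators and secreted factors.

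The livers came from male ApoE3L.CETP mice, a transgenic strain with human ApoE*3-Leiden and CETP that carries more of its cholesterol in human-like lipoproteins, and the labels give their age as 9 to 12 weeks at the start. All mice shared that genotype and were fed a diet of 60% fat and 0.25% cholesterol for 6 weeks before an operation, were housed singly afterwards, and were killed 20 days after surgery. The RYGB group (n = 6) had gastric bypass, the Sham AL group (n = 5) had sham surgery and free access to food, and the BWm group (n = 4) had sham surgery and was held at the body weight of the RYGB mice. Each mouse gave 1 array, the titles number the arrays as biological replicates, and no mouse without an operation is among the samples used here. Whole liver was measured, so a change in the number of cells of a type and a change in RNA per cell cannot be told apart.

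ATF4 is a transcription factor whose protein is made mainly when translation start factor eIF2 is phosphorylated by one of several stress kinases, among them GCN2, which senses uncharged tRNA, and PERK, which senses unfolded protein in the endoplasmic reticulum. With C/EBP partners it binds composite C/EBP-ATF elements and switches on genes for amino acid uptake, amino acid and one-carbon synthesis, and tRNA charging. Other targets (CHOP, TRIB3, GADD34) feed back on the response or steer it towards cell death. In liver this programme is known from protein shortage, endoplasmic reticulum stress and mitochondrial stress. Because ATF4 is controlled largely at translation, its mRNA level is not a measure of its activity.

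Promoters of 5 members are shown because these genes were higher after bypass than in both sham groups and carry the composite element near their start. The sequences are RefSeq promoters on GRCm38.p6, each running from 120 bases before to 30 bases after the annotated start, 5′ to 3′ on the gene's own strand. Capitals mark the motif TGATGNAA or, where it lies on the other strand, TTNCATCA.
Slc7a11: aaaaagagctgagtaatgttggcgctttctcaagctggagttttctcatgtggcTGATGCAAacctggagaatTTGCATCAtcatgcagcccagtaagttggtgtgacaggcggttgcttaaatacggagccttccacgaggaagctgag
Nupr1: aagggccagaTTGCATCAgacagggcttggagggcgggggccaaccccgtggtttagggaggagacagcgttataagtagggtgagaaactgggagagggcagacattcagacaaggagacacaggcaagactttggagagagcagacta
Atf3: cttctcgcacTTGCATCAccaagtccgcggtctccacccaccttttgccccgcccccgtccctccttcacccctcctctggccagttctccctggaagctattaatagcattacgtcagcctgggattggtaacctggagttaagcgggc
Trib3: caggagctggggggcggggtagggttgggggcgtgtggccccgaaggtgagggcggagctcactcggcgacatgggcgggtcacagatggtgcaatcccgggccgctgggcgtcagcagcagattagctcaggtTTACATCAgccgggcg
Asns: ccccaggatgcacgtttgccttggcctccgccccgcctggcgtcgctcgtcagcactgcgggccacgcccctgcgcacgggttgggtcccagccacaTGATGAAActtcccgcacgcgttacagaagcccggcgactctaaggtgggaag
All lie on the minus strand of the genome: Slc7a11 at chr3:50443584-50443733, Nupr1 at chr7:126625441-126625590, Atf3 at chr1:191183304-191183453, Trib3 at chr2:152344031-152344180 and Asns at chr6:7693180-7693329. Slc7a11 carries a pair of matches facing each other, at bases -66 to -59 and -47 to -40 from the start. Nupr1 and Atf3 each hold the match at -110 to -103, Asns at -23 to -16 and Trib3 at 15 to 22. Windows from 250 bases before to 50 after the start were searched on both strands. The motif was present in 3.97% of 32851 windows in the table and in 9 of 38 windows of the 30 members that have an entry, which is 23.7%. Among members called in at least 1 comparison below, 6 of 13 genes with a window held it (the 5 above and Slc1a4). Among those called in none, 2 of 14 did (Chac1 and Jdp2), and the unmeasured Pycr1 held it too. Counted by gene, 1219 of 27025 in the table held it. The members were listed for the ATF4 response, which acts through this element, so their share is not independent of that choice. Whether the motif goes with the calls was not tested. The exact form TGATGCAA was in 0.895% of all windows. A match describes these letters and is not a measured binding site.

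The arrays had medians between 3.89 and 4.02 log2 units and pairwise correlations across genes of 0.967 to 0.991, and their number limits the precision. The liver markers were present, with Alb (albumin) at 12.83 to 12.93 on the arrays. Sham AL replicate 4 stood apart: 662 genes on it lay more than 1 log2 unit from the group mean, against 53 to 128 on the other 14 arrays. It read 10.37 for Cyp11b1, an adrenal steroid enzyme, and 11.89 for Ucp1 of brown fat, where no other array exceeded 3.22 and 4.54. It was the highest Sham AL array for 13 of the 32 members, so results are given with it and, where they differ, without it. Its part in the members' values was not tested beyond leaving it out.

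After bypass, members of the module were called higher than in each sham group, and none was called lower. Values are log2 RMA signals, differences are in log2 units with their standard error (SE), and a gene is called where limma's p, adjusted by Benjamini-Hochberg over all 22180 genes, is under 0.05. Against Sham AL, 9 of 32 members were called higher, where 0.938% of all genes were, and 0 were called lower, where 0.442% were. Against BWm, 15 were called higher, where 4.02% of all genes were, and 0 lower, where 2.34% were. At an unadjusted p under 0.05 the lower members numbered 0 against Sham AL and 3 against BWm (Slc38a2, Chac1 and Stc2). The share of all genes at that cut is not given, here or below, so such counts have no background beside them. The methods' one-way analysis of variance, run gene by gene, called 0 members lower in both comparisons. After Benjamini-Hochberg adjustment it called 0 members higher against Sham AL and 9 against BWm, and at the methods' own threshold 12 and 15. The median member differed by 0.40 from Sham AL and by 0.52 from BWm, and the median of all genes by 0.00 in both. These comparisons share the RYGB arrays, so they are not independent of each other. The members were chosen with earlier results of these data known, so the gap between members and all genes is not independent evidence.

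Between the sham groups few members were called. In BWm against Sham AL, 0 members were called higher, where 1.53% of all genes were, and 2 were called lower (Slc1a4 and Phgdh), where 1.3% were. At an unadjusted p under 0.05, 4 were higher (Slc38a2, Cth, Chac1 and Sesn2) and 6 lower, and the methods' one-way analysis of variance called 0 higher. The median member differed by -0.08, beside -0.01 for all genes.

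In 8 members every RYGB array lay above every Sham AL array, which was so for 1.58% of all genes. In 13 members every RYGB array lay above every BWm array, which was so for 4.71%. In 2 members, Slc1a4 and Phgdh, every BWm array lay below every Sham AL array, beside 3.39% of all genes, and in 2 others, Cth and Sesn2, every BWm array lay above, beside 3.46%. Without Sham AL replicate 4, the members called higher against Sham AL numbered 10, beside 0.911% of all genes. Slc7a5 and Psat1 joined them and Cth left. The 2 members lower in BWm were again called, beside 1.09%.

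**Figure D1:**
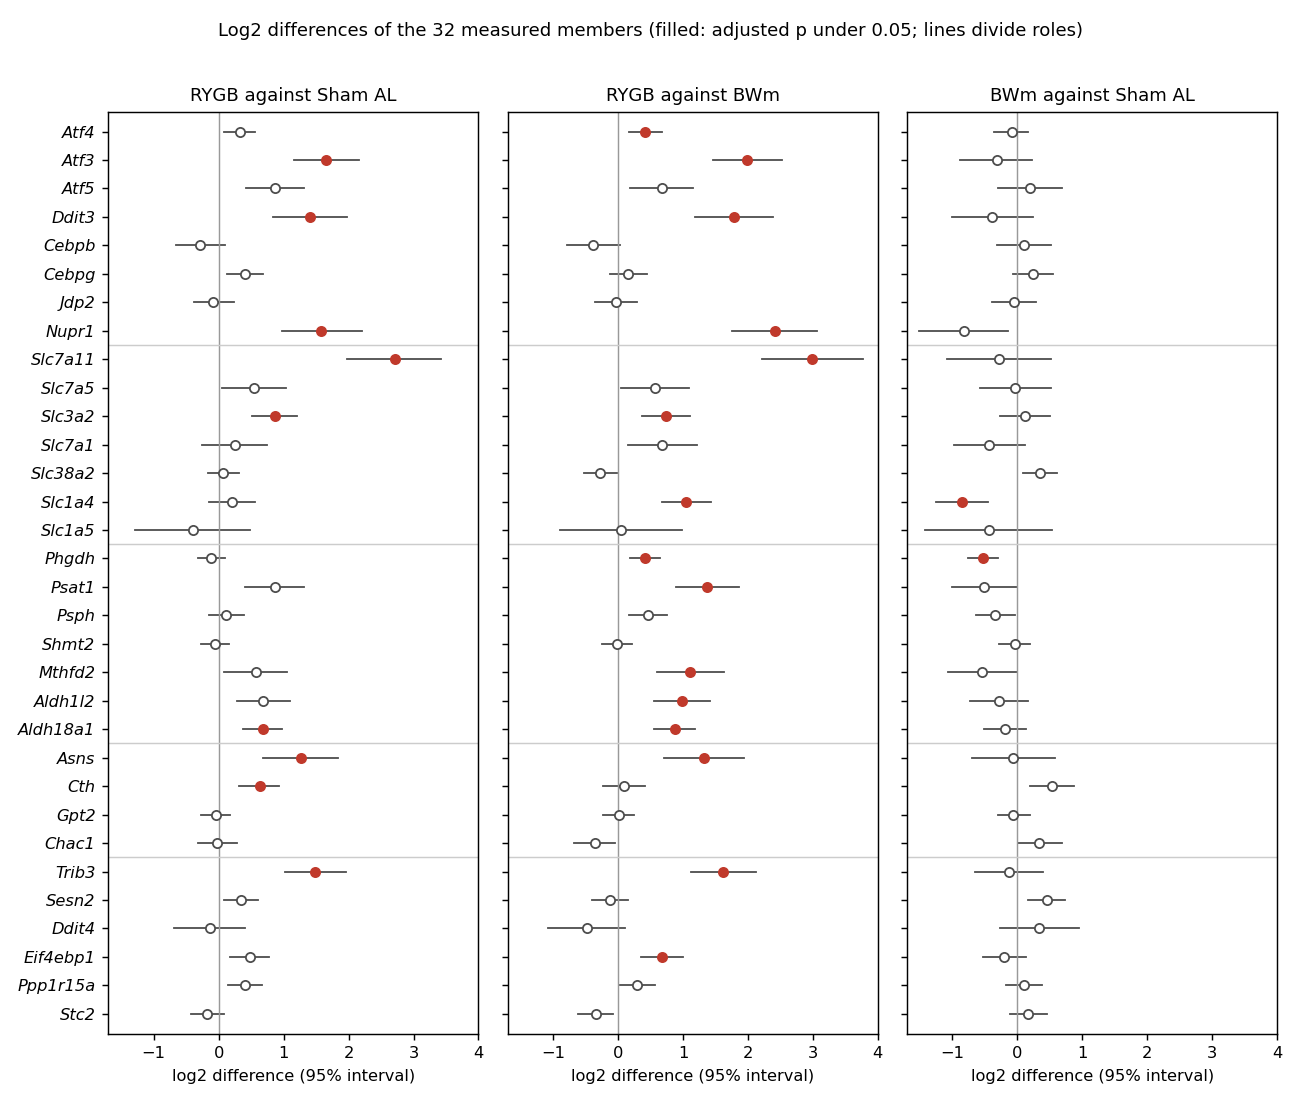
Log2 differences of the 32 measured members in the 3 comparisons, ordered by role, with 95% intervals; filled points have a limma adjusted p under 0.05. In both RYGB panels the filled points all lie to the right of 0, and in the panel of BWm against Sham AL only Slc1a4 and Phgdh are filled, to the left.

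Of the 8 factors, 3 rose against Sham AL (Atf3, Ddit3 and Nupr1) and 4 were higher than in BWm (these and Atf4). Their median differences were 0.64 and 0.55. No factor was called in BWm against Sham AL, where 1 (Nupr1, lower) passed an unadjusted p under 0.05 and the methods' one-way analysis of variance called none.

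Atf4 encodes the factor itself. Its RYGB arrays ran from 7.45 to 7.77 with a median of 7.66, the Sham AL arrays read 7.47, 7.35, 7.02, 7.38 and 7.41, and the BWm arrays 7.50, 7.36, 7.04 and 7.02. RYGB replicate 1 lay among the sham arrays and the other 5 above them all. The difference was 0.42 ± 0.12 (SE) from BWm (adjusted p = 0.04) and 0.33 ± 0.11 from Sham AL (adjusted p = 0.19). The call against BWm was lost when any 1 of 9 arrays was left out (RYGB replicates 2 to 6, Sham AL replicate 2, BWm replicates 2 to 4), with adjusted p up to 0.15. It was also lost with animal number as a block (0.40, adjusted p = 0.10) and over animals numbered above 60 only (0.43, adjusted p = 0.14).

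Atf3, a stress-induced factor that is itself an ATF4 target, was at 7.43 to 8.77 on the RYGB arrays, with a median of 8.10. It read 6.22, 6.02, 6.09, 7.09 and 6.86 on the Sham AL arrays and 6.68, 6.12, 5.82 and 5.89 on the BWm arrays. No RYGB array overlapped either sham group, and the highest sham value was that of Sham AL replicate 4. Atf3 was 3.17-fold higher than in Sham AL (1.66 ± 0.24, adjusted p = 0.0016) and 3.96-fold higher than in BWm (1.99 ± 0.25, adjusted p = 0.00014).

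Ddit3 encodes CHOP, the factor that drives the pro-death arm of the response. The RYGB arrays spanned 6.68 to 8.63 with a median of 7.23, the Sham AL arrays read 5.71, 5.69, 6.00, 6.15 and 6.50, and the BWm arrays 6.29, 5.49, 5.42 and 5.29. All RYGB values lay above all sham values, with RYGB replicate 5 well above the rest. Ddit3 differed by 1.40 ± 0.27 from Sham AL (2.64-fold, adjusted p = 0.013) and by 1.78 ± 0.29 from BWm (3.44-fold, adjusted p = 0.00084).

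Nupr1, a small nuclear stress protein that acts with transcription factors, ran from 6.70 to 8.39 after bypass, with a median of 7.75. Sham AL arrays read 5.37, 5.58, 6.12, 6.52 and 6.73, and BWm arrays 6.14, 4.84, 4.96 and 5.03. The groups were apart except that RYGB replicate 3, the lowest, lay just under Sham AL replicate 5. The difference was 1.58 ± 0.29 from Sham AL (3.00-fold, adjusted p = 0.01) and 2.41 ± 0.31 from BWm (5.30-fold, adjusted p = 0.00016). BWm and Sham AL differed by -0.82 ± 0.33, which was not called (adjusted p = 0.21).

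The other 4 factors were not called. Atf5, a close relative of ATF4, was at 8.71 to 9.46 on the RYGB arrays, above every Sham AL array (7.77 to 8.66) but not above every BWm array (7.81 to 9.01). Its difference from Sham AL was 0.87 (95% interval 0.42 to 1.32, adjusted p = 0.053), and the call changed with the setting: leaving out any 1 of 4 arrays (RYGB replicate 1 or BWm replicates 2, 3 or 4) brought it under the threshold. Cebpg, a C/EBP partner of ATF4, differed by 0.40 (0.13 to 0.68) from Sham AL and 0.16 (-0.13 to 0.45) from BWm. Cebpb, another partner, averaged 7.20 ± 0.42 (SD) in RYGB, 7.48 ± 0.28 in Sham AL and 7.58 ± 0.24 in BWm. Its differences of -0.28 (-0.66 to 0.10) and -0.38 (-0.79 to 0.03) went the other way from those of Atf3. Jdp2, a repressor that competes for such sites, differed by -0.08 (-0.38 to 0.23) and -0.03 (-0.36 to 0.30).

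**Figure D2:**
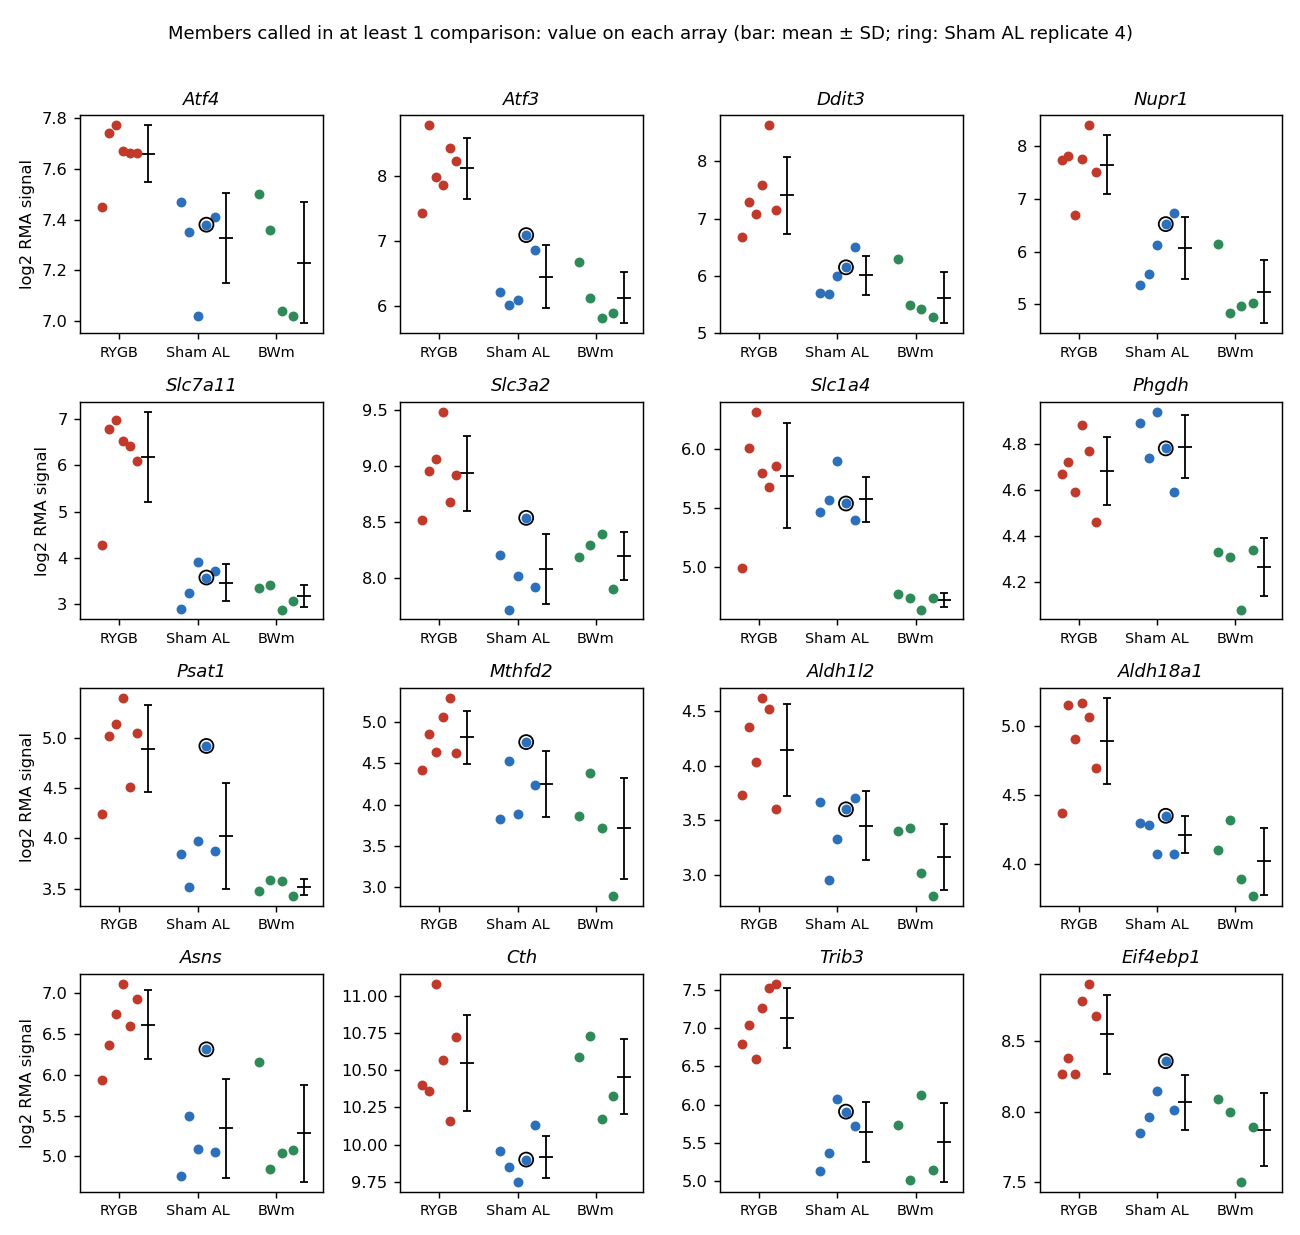
Log2 RMA signal on each array for the 16 members called in at least 1 comparison, by group, with the mean and SD; a ring marks Sham AL replicate 4. The 6 RYGB points of Slc7a11, Atf3, Ddit3 and Trib3 all lie above the points of both sham groups, whereas those of Cth overlap with BWm and those of Slc1a4 and Phgdh overlap with Sham AL.

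Of the 7 transporters, 2 rose against Sham AL (Slc7a11 and Slc3a2) and 3 were higher than in BWm (these and Slc1a4), with medians of 0.25 and 0.68. The median against Sham AL was 0.53 without Sham AL replicate 4, and 3 transporters were then called. In BWm against Sham AL, Slc1a4 was called lower, and the median turned from -0.28 to 0.15 without that array.

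Slc7a11 is the light chain of the cystine-glutamate exchanger, which brings in cystine for glutathione. Its RYGB arrays ran from 4.29 to 6.98 with a median of 6.46. The Sham AL arrays read 2.90, 3.24, 3.91, 3.58 and 3.72 and the BWm arrays 3.36, 3.41, 2.89 and 3.08. All RYGB arrays lay above all sham arrays, but RYGB replicate 1, at 4.29, was closer to the sham range than to the other 5, which began at 6.08. The difference was 2.71 ± 0.35 from Sham AL (6.53-fold, adjusted p = 0.00055) and 2.99 ± 0.37 from BWm (7.96-fold, adjusted p = 0.00012). A second Slc7a11 cluster, with a mean of 2.03 over all arrays, gave 0.49 ± 0.17 (adjusted p = 0.32) and 0.67 ± 0.18 (adjusted p = 0.058) in a fit of all clusters, so the probe sets differ in size and call. With the mean of both clusters, Slc7a11 differed by 1.60 (adjusted p = 0.0016) and 1.83 (adjusted p = 0.00018). The sham values (2.89 to 3.91) lay near or below the array medians, where signal over background is not known, and the filter on level removed the gene, so the folds hold for this cluster's RMA signal and not for the amount of RNA.

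Slc3a2, the shared heavy chain that carries Slc7a11 and Slc7a5 to the cell surface, ran from 8.52 to 9.49 after bypass, with a median of 8.94. It read 8.21, 7.72, 8.02, 8.54 and 7.92 in Sham AL and 8.19, 8.30, 8.40 and 7.90 in BWm. Only RYGB replicate 1 and Sham AL replicate 4 overlapped. Slc3a2 rose by 0.86 ± 0.17 against Sham AL (1.81-fold, adjusted p = 0.013) and was 0.74 ± 0.18 above BWm (1.67-fold, adjusted p = 0.015). The call against Sham AL was lost without Sham AL replicate 2 (adjusted p = 0.05) and that against BWm without BWm replicate 4 (adjusted p = 0.06).

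Slc1a4, an exchanger of alanine, serine and cysteine, followed another pattern. It was at 4.99 to 6.32 in RYGB (median 5.83), at 5.47, 5.57, 5.90, 5.54 and 5.40 in Sham AL, and at 4.77, 4.74, 4.64 and 4.74 in BWm. RYGB and Sham AL overlapped and every BWm array lay below both. Slc1a4 was 1.05 ± 0.18 higher in RYGB than in BWm (2.08-fold, adjusted p = 0.0013), 0.85 lower in BWm than in Sham AL (-0.85 ± 0.19, adjusted p = 0.018), and differed by 0.20 (95% interval -0.15 to 0.56) between RYGB and Sham AL. The call of BWm against Sham AL was lost without BWm replicate 2 or 3, with adjusted p up to 0.065.

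Of the uncalled transporters, 3 carried their highest Sham AL value on replicate 4 by a wide margin. Slc7a5, the light chain for large neutral amino acids, read 6.43 on that array and 4.89 to 5.60 on the other 4, and 5.33 to 6.19 in RYGB. Its difference from Sham AL was 0.54 ± 0.23 (adjusted p = 0.33), and 0.80 ± 0.18 (adjusted p = 0.026) without that array. Slc7a1, which carries arginine and lysine, read 5.95 there against 4.33 to 4.66. It differed from BWm by 0.68 ± 0.25 (adjusted p = 0.13), and by 0.68 ± 0.16 (adjusted p = 0.012) without Sham AL replicate 4, which enters that value through the shared estimate of spread. Slc1a5, the glutamine exchanger, read 7.97 there against 4.47 to 5.39, and its difference from Sham AL went from -0.40 to 0.19 without it, uncalled both times. Slc38a2, another glutamine carrier, lay within 8.76 to 8.94 in RYGB and 8.63 to 8.83 in Sham AL, while BWm read 9.39, 9.30, 9.10 and 8.63. Without BWm replicate 4, the lowest of these, Slc38a2 was called higher in BWm than in Sham AL (adjusted p = 0.012) and lower in RYGB than in BWm (adjusted p = 0.015). With all arrays neither was called (0.35, 0.08 to 0.61, and -0.28, -0.53 to -0.02).

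Of the 7 enzymes of serine, one-carbon and proline synthesis, 5 were higher in RYGB than in BWm (Phgdh, Psat1, Mthfd2, Aldh1l2 and Aldh18a1) and 1 than in Sham AL (Aldh18a1), with medians of 0.87 and 0.57. A filter on level that kept 3 of the 7 gave medians of 0.42 and -0.06, so the direction against Sham AL rests on the dimmer enzymes. These were Psat1, Mthfd2, Aldh1l2 and Aldh18a1, whose signal over background is not known. Their folds below hold for the RMA signal and not for the amount of RNA. The median of BWm against Sham AL was -0.34, and 0 of 7 differences were above 0. In that comparison Phgdh was called lower, and 4 of 7 were lower at an unadjusted p under 0.05 (Phgdh, Psat1, Psph and Mthfd2).

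Phgdh, Psat1 and Psph carry out the successive steps of serine synthesis from a glycolytic intermediate. Phgdh read 4.46 to 4.88 in RYGB (median 4.70), 4.89, 4.74, 4.94, 4.78 and 4.59 in Sham AL, and 4.33, 4.31, 4.08 and 4.34 in BWm. As for Slc1a4, every BWm array lay below every RYGB and Sham AL array. The BWm values lay just above the array medians of 3.89 to 4.02. The Phgdh fold thus holds for the RMA signal and not for the amount of RNA. Phgdh was 0.42 ± 0.11 above BWm (1.33-fold, adjusted p = 0.022), and BWm was lower than Sham AL (-0.53 ± 0.11, adjusted p = 0.013), while RYGB and Sham AL differed by -0.11 (95% interval -0.32 to 0.10). Both calls were lost without BWm replicate 3, and without RYGB replicate 4 that of RYGB against BWm (adjusted p up to 0.096 and 0.062 over all left-out arrays). With animal number as a block the call against BWm was lost (adjusted p = 0.054), and over animals numbered above 60 only both were (adjusted p = 0.10 and 0.065).

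Psat1 ran from 4.24 to 5.40 after bypass, with a median of 5.03. The Sham AL arrays read 3.85, 3.52, 3.97, 4.92 and 3.88 and the BWm arrays 3.48, 3.59, 3.58 and 3.43. All RYGB arrays lay above BWm, and only Sham AL replicate 4, at 4.92, lay inside the RYGB range. Psat1 was 1.37 ± 0.23 higher than in BWm (2.59-fold, adjusted p = 0.0012). Its difference from Sham AL was 0.87 ± 0.22 (adjusted p = 0.058), and 1.09 ± 0.18 (2.12-fold, adjusted p = 0.0031) without that array. Psph, the last step, was not called, at 0.46 (0.17 to 0.75, adjusted p = 0.055) from BWm and 0.12 (-0.15 to 0.39) from Sham AL. Leaving out any 1 of 4 arrays (BWm replicate 1, RYGB replicate 1, RYGB replicate 4, Sham AL replicate 5) gave a call against BWm, with adjusted p down to 0.027.

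Mthfd2 and Aldh1l2 are mitochondrial folate enzymes. Mthfd2 was at 4.42 to 5.30 in RYGB (median 4.75), at 3.83, 4.53, 3.89, 4.76 and 4.24 in Sham AL, and at 3.86, 4.38, 3.71 and 2.89 in BWm. It overlapped with Sham AL and not with BWm. The difference from BWm was 1.11 ± 0.25 (2.16-fold, adjusted p = 0.0092) and from Sham AL 0.57 ± 0.23 (adjusted p = 0.28). Aldh1l2 was at 3.60 to 4.62 in RYGB (median 4.19), at 3.67, 2.95, 3.33, 3.60 and 3.70 in Sham AL, and at 3.40, 3.43, 3.02 and 2.81 in BWm. Its groups were placed likewise, with RYGB replicate 6 inside the Sham AL range. The difference was 0.98 ± 0.21 from BWm (1.97-fold, adjusted p = 0.0065) and 0.69 ± 0.19 from Sham AL (adjusted p = 0.092). Shmt2, which feeds serine into the same mitochondrial pathway, lay between 10.26 and 10.79 over all 3 groups and differed by -0.06 (-0.27 to 0.16) from Sham AL and -0.01 (-0.24 to 0.22) from BWm.

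Aldh18a1 starts proline synthesis from glutamate. Its RYGB arrays ran from 4.37 to 5.17 with a median of 4.99, Sham AL arrays read 4.30, 4.28, 4.07, 4.35 and 4.07, and BWm arrays 4.10, 4.32, 3.89 and 3.77. All RYGB arrays lay above all sham arrays, RYGB replicate 1 only just. Aldh18a1 rose by 0.68 ± 0.14 against Sham AL (1.60-fold, adjusted p = 0.021) and was 0.87 ± 0.15 above BWm (1.83-fold, adjusted p = 0.0015). The call against Sham AL was lost when any 1 of 5 arrays was left out (RYGB replicates 2 or 4, Sham AL replicates 2, 3 or 5), with adjusted p up to 0.057.

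**Figure D3:**
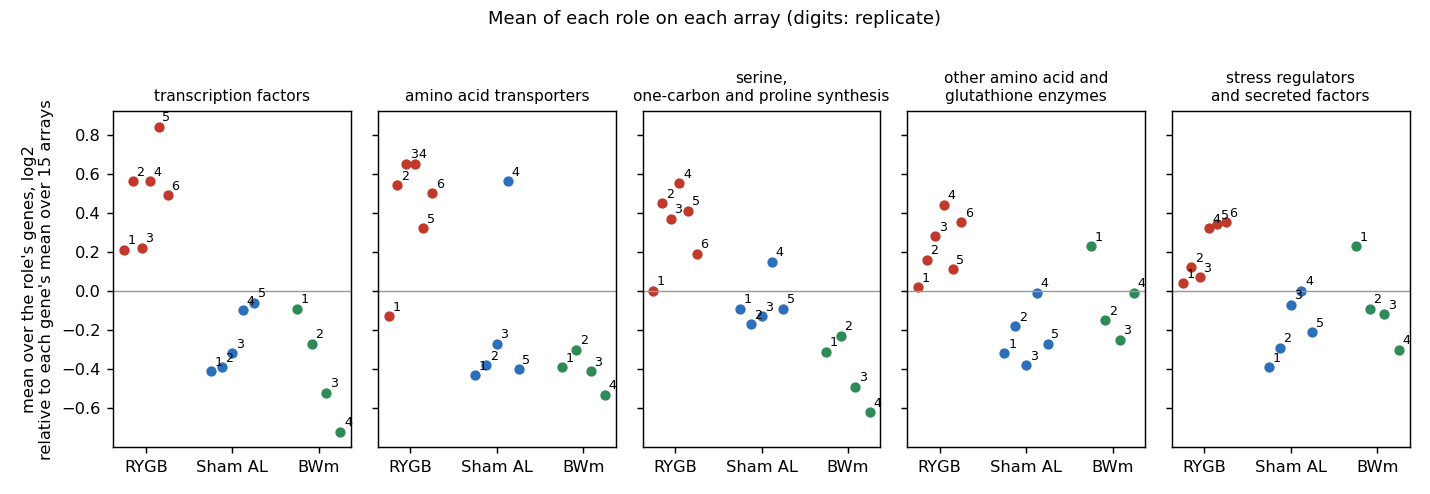
Mean over the measured members of each role on each array, in log2 units relative to each gene's mean over the 15 arrays; digits give the replicate. Transcription factors do not overlap between RYGB and the sham groups, while Sham AL replicate 4 reaches 0.56 for transporters and RYGB replicate 1 falls to -0.13.

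The 3 main roles separated the groups in different ways, as the plot of role means by array shows. The mean of the transcription factors, relative to each gene's mean over all arrays, was 0.21 to 0.84 on the RYGB arrays, -0.41 to -0.06 on the Sham AL arrays and -0.72 to -0.09 on the BWm arrays. For transporters it was 0.32 to 0.65 on 5 RYGB arrays and -0.13 on RYGB replicate 1, and -0.43 to -0.27 on 4 Sham AL arrays and 0.56 on replicate 4. BWm transporters lay at -0.53 to -0.30. The synthesis enzymes gave 0 to 0.55 in RYGB, -0.17 to 0.15 in Sham AL and -0.62 to -0.23 in BWm, so that BWm lay below both other groups on every array. These means describe the chosen members and were not tested.

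Of the 4 other amino acid and glutathione enzymes, Asns and Cth rose against Sham AL and Asns was higher than in BWm. Asns, which makes asparagine and is a textbook ATF4 target, ran from 5.93 to 7.11 in RYGB, with a median of 6.67. It read 4.76, 5.50, 5.09, 6.31 and 5.05 in Sham AL and 6.16, 4.85, 5.04 and 5.08 in BWm. One array in each sham group, Sham AL replicate 4 and BWm replicate 1, lay inside the RYGB range. Asns rose by 1.27 ± 0.27 against Sham AL (2.40-fold, adjusted p = 0.025) and was 1.33 ± 0.29 above BWm (2.51-fold, adjusted p = 0.0089). Against Sham AL the call was lost when any 1 of 7 arrays was left out (RYGB replicates 3, 4 or 6, Sham AL replicates 1, 2, 3 or 5; adjusted p up to 0.076) or only animals numbered above 60 were used (adjusted p = 0.065). The difference was larger without Sham AL replicate 4, at 1.51 ± 0.24 (adjusted p = 0.0031).

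Cth, which makes cysteine from cystathionine, was at 10.16 to 11.08 in RYGB (median 10.48), at 9.96, 9.85, 9.75, 9.90 and 10.13 in Sham AL, and at 10.59, 10.73, 10.17 and 10.33 in BWm. Both RYGB and BWm lay above every Sham AL array and overlapped with each other. Cth rose by 0.63 ± 0.15 against Sham AL (1.54-fold, adjusted p = 0.04) and differed by 0.09 (95% interval -0.23 to 0.42) from BWm. BWm against Sham AL gave 0.53 ± 0.16 (adjusted p = 0.088). The call against Sham AL was lost when any 1 of 8 arrays was left out (RYGB replicates 2, 3, 4 or 6, Sham AL replicates 1 to 4; adjusted p up to 0.11), with animal number as a block (adjusted p = 0.066) and over animals numbered above 60 only (adjusted p = 0.19). Gpt2, the mitochondrial alanine transaminase, differed by -0.04 (-0.27 to 0.18) from Sham AL and 0.01 (-0.23 to 0.25) from BWm. Chac1, which degrades glutathione and carries the motif in its promoter, differed by -0.02 (-0.32 to 0.28) and -0.36 (-0.68 to -0.04, adjusted p = 0.20).

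Among the stress regulators and secreted factors, Trib3 rose in both RYGB comparisons and Eif4ebp1 was higher than in BWm, while Sesn2, Ddit4, Ppp1r15a and Stc2 were not called. Trib3, a pseudokinase induced by ATF4 and CHOP that restrains them in turn, ran from 6.60 to 7.58 in RYGB, with a median of 7.15. It read 5.14, 5.37, 6.08, 5.91 and 5.72 in Sham AL and 5.74, 5.02, 6.13 and 5.15 in BWm. Every RYGB array lay above every sham array. Trib3 rose by 1.49 ± 0.22 against Sham AL (2.81-fold, adjusted p = 0.002) and was 1.62 ± 0.24 above BWm (3.08-fold, adjusted p = 0.0004).

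Eif4ebp1, a brake on cap-dependent translation, was at 8.27 to 8.91 in RYGB (median 8.53), at 7.85, 7.96, 8.15, 8.36 and 8.01 in Sham AL, and at 8.09, 8.0, 7.50 and 7.89 in BWm. RYGB lay above all BWm arrays and overlapped with Sham AL replicate 4. It was 0.68 ± 0.15 above BWm (1.60-fold, adjusted p = 0.0099) and differed from Sham AL by 0.48 ± 0.14, which was not called (adjusted p = 0.12). The call against BWm was lost without BWm replicate 3 (adjusted p = 0.052).

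Ppp1r15a encodes GADD34, which directs a phosphatase to eIF2 and so ends the response. Its RYGB arrays (5.48 to 6.15) lay above every Sham AL array (5.03 to 5.43), but the difference of 0.40 (95% interval 0.15 to 0.66, adjusted p = 0.13) was not called. Sesn2, which restrains mTORC1, differed from Sham AL by 0.34 (0.08 to 0.60) in RYGB and by 0.45 (0.17 to 0.74) in BWm, with neither called. Ddit4, another restraint on mTORC1, spread from 5.05 to 6.93 within BWm and differed by -0.14 (-0.69 to 0.41) and -0.48 (-1.07 to 0.11) in the RYGB comparisons. Stc2, a secreted glycoprotein, differed by -0.18 (-0.43 to 0.08) and -0.34 (-0.61 to -0.07). Against BWm, log2 differences in this role thus ranged from 1.62 for Trib3 to -0.48 for Ddit4.

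**Figure D4:**
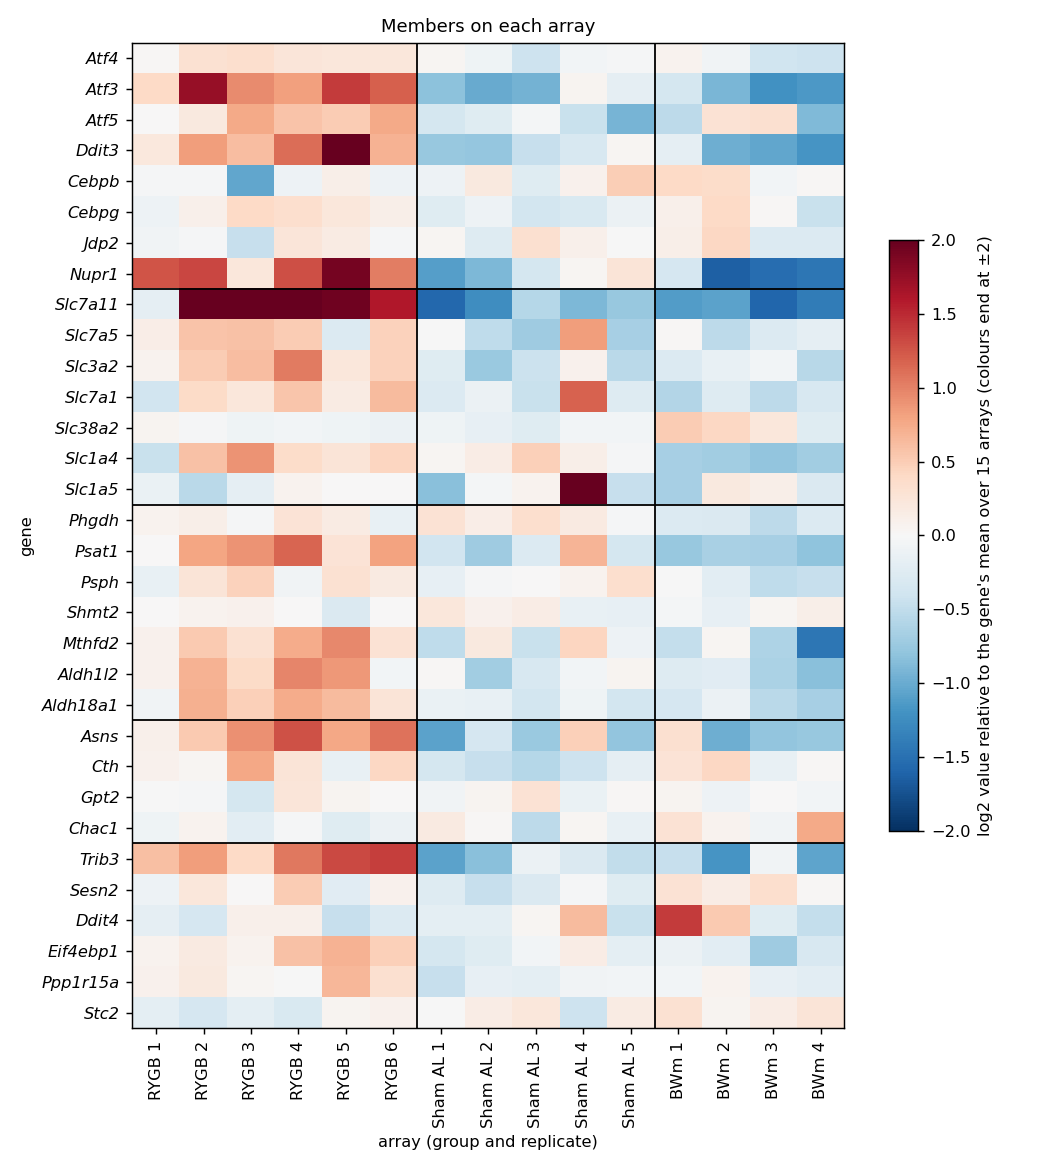
Each member (rows, grouped by role) on each of the 15 arrays (columns), as log2 signal relative to the gene's mean; colours end at 2 units on either side. The RYGB columns are mostly above the mean for Atf3, Ddit3, Nupr1, Slc7a11, Slc3a2, Aldh18a1, Asns and Trib3. RYGB replicate 1 is the lowest of its group for 10 of the 16 called members, and Sham AL replicate 4 stands out in the transporter rows.

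Members varied between bypass mice, as the heat map by array shows. Over the 16 members called in any comparison, RYGB replicate 1 was the lowest of its group for 10 and the highest for 0. RYGB replicate 4 was the highest for 6 (Slc3a2, Phgdh, Psat1, Aldh1l2, Aldh18a1 and Asns), all in transport or synthesis. RYGB replicate 5 was the highest for 4, among them Ddit3 and Nupr1, and RYGB replicate 3 for 4, among them Slc7a11, while it was the lowest for Nupr1, Trib3 and Eif4ebp1. The mean of all 32 members, relative to each gene's mean, was 0.04 on RYGB replicate 1 and 0.33 to 0.52 on the other 5. In Sham AL it was -0.33 to -0.19 on 4 arrays and 0.13 on replicate 4, and in BWm it was -0.49 to -0.10. Hence 1 bypass array lay below 1 ad libitum array in this mean.

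Markers of other liver cells were read beside these values, since macrophages and neutrophils can also make Atf3, Slc7a11 and other members. Of 11 Kupffer cell and macrophage markers, 1 was called higher against Sham AL (Adgre1), where 0.938% of all genes were. That call was lost without Sham AL replicate 4. Against BWm 1 was called higher (Cd68), where 4.02% of all genes were. The markers' medians were 0.33 and 0.32. The share of all genes at an unadjusted p under 0.05 is not given. At that cut, 5 of these 11 markers were higher against Sham AL (Adgre1, Vsig4, Cd68, Csf1r and C1qa) and 4 against BWm, with 0 lower in either. Their summed linear signal was 2630 to 3910 in RYGB, 2380 to 3590 in Sham AL and 2120 to 3290 in BWm. Of 8 neutrophil markers limma called 0 in both comparisons, with 3 and 2 higher at an unadjusted p under 0.05 and summed signals of 75.3 to 133, 71.5 to 92.4 and 66.9 to 87. Against Sham AL, where 0.442% of all genes were called lower, 2 of 8 brown and white adipocyte markers were (Cidea and Elovl3). Without Sham AL replicate 4, 1 was. Against BWm, where 2.34% of all genes were called lower, 1 of these markers was (Elovl3). Their mean log2 signal was 3.83 to 4.60 in RYGB and 4.18 to 4.70 in BWm. In Sham AL it was 4.67 to 5.13 on 4 arrays and 8.92 on replicate 4, so RYGB and Sham AL did not overlap in this mean. At an unadjusted p under 0.05, 3 of the 8 were lower against Sham AL (Cidea, Fabp4 and Elovl3). Such a mean is not a count of fat cells, and whether hepatocytes made Cidea or Elovl3 here was not tested. Of 8 endothelial markers limma called 0 in both RYGB comparisons, with 2 lower and 0 higher in each at an unadjusted p under 0.05. Their summed signal was 1210 to 1900 in RYGB, 1700 to 1930 in Sham AL and 1730 to 2050 in BWm. Lymphocyte, cholangiocyte, and stellate cell and fibroblast markers also had 0 calls in these comparisons. RMA values have no zero, and no marker was at 0. The part of these cells in the members' differences was not tested.

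Upstream of ATF4, 13 of 15 listed eIF2 kinases and factors were measured. None was called against Sham AL, where 0.938% of all genes were called higher and 0.442% lower. At an unadjusted p under 0.05, 1 was higher and 0 lower there. Against BWm, 2 were called higher, where 4.02% of all genes were, and 1 lower, where 2.34% were. Eif2ak3, which encodes PERK, averaged 6.62 ± 0.23 (SD, n = 6) in RYGB, 6.11 ± 0.07 (n = 5) in Sham AL and 5.89 ± 0.27 (n = 4) in BWm. It was 0.73 ± 0.13 (SE) above BWm (adjusted p = 0.0022) and differed from Sham AL by 0.51 ± 0.12 without a call (adjusted p = 0.051), and its RYGB arrays lay above all sham arrays. Impact, an inhibitor of GCN2, was 0.68 ± 0.14 above BWm (adjusted p = 0.0068). Ppp1r15b, the constant partner of the eIF2 phosphatase, was lower than in BWm (-0.41 ± 0.11, adjusted p = 0.031) and higher in BWm than in Sham AL (0.47 ± 0.11, adjusted p = 0.03), the second without a call when Sham AL replicate 4 was left out. Eif2ak2, the kinase that responds to double-stranded RNA, was not called in any comparison and differed by -0.06 (-0.30 to 0.18) from Sham AL and 0.37 (0.11 to 0.62) from BWm.

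Cytosolic tRNA synthetases, which charge tRNA with amino acids and include many ATF4 targets, went the way of the members. Of 18 measured, 6 were called higher against Sham AL, where 0.938% of all genes were. Without Sham AL replicate 4, 4 were, beside 0.911%. Against BWm 10 were called higher, where 4.02% of all genes were. The synthetases had medians of 0.28 and 0.44, and 0 were lower in either comparison, also at an unadjusted p under 0.05. In BWm against Sham AL, 3 were lower (Farsb, Lars and Wars), where 1.3% of all genes were. Without Sham AL replicate 4, 1 was, beside 1.09%. Gars differed by 0.62 ± 0.11 from Sham AL (adjusted p = 0.0077) and 0.76 ± 0.12 from BWm (adjusted p = 0.0007). Sars gave 0.55 ± 0.11 (adjusted p = 0.015) and 0.75 ± 0.12 (adjusted p = 0.00063), and Nars 0.41 ± 0.10 (adjusted p = 0.04) and 0.80 ± 0.10 (adjusted p = 0.00014). Lars was 0.85 ± 0.12 above BWm (adjusted p = 0.00026) and not called against Sham AL (0.38 ± 0.11, adjusted p = 0.12).

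Of 22 amino acid transporters outside the module, all measured, 0 were called against Sham AL (3 higher and 1 lower at an unadjusted p under 0.05), and against BWm 2 were higher (Slc7a8 and Slc36a1) and 2 lower (Slc43a1 and Slc16a10), with medians of 0.03 and -0.02. Against Sham AL the count is near the shares of all genes, 0.938% higher and 0.442% lower. Against BWm those shares were 4.02% and 2.34%, and the counts lie above them, but they are few and went both ways. Slc7a8, a light chain that also pairs with Slc3a2, differed by 0.78 ± 0.16 from BWm (adjusted p = 0.0047), and its BWm arrays lay below every Sham AL array. Slc36a1, a proton-coupled carrier of small amino acids, was 0.47 ± 0.11 above BWm (adjusted p = 0.014). Slc43a1, which carries large neutral amino acids, was lower in RYGB than in BWm (-1.0 ± 0.19, adjusted p = 0.0035), as was Slc16a10, which carries aromatic amino acids (-0.55 ± 0.14, adjusted p = 0.025). In BWm against Sham AL, Slc16a10 was higher (0.68 ± 0.15, adjusted p = 0.018) and Slc36a1 lower (-0.44 ± 0.12, adjusted p = 0.046), the latter without a call when Sham AL replicate 4 was left out.

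Of the other enzymes of serine, glycine, folate and proline metabolism, 21 of 26 listed were measured. None was called higher in a RYGB comparison, which for so few genes is near the shares of all genes (0.938% and 4.02%). Against Sham AL 0 were called in either direction (1 higher and 3 lower at an unadjusted p under 0.05), and 2 were lower than in BWm, with medians of -0.01 and -0.14. Both start the breakdown of proline or hydroxyproline. Prodh averaged 8.58 ± 0.23 (SD) in RYGB, 8.84 ± 0.18 in Sham AL and 9.29 ± 0.13 in BWm, and was lower than in BWm by 0.71 (-0.71 ± 0.13 (SE), adjusted p = 0.002). Prodh2 was lower by 0.59 (-0.59 ± 0.12, adjusted p = 0.005). Oat, which makes a proline precursor from ornithine, differed by -0.47 ± 0.14 from Sham AL (adjusted p = 0.11) and -0.28 ± 0.15 from BWm (adjusted p = 0.33). Tyms, which makes thymidylate, differed by -0.17 and 0.23, with neither called.

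A further list held 20 genes of the ATF4 and CHOP response and of endoplasmic reticulum stress more widely, all measured. Against Sham AL 2 were called higher (Fgf21 and Sqstm1, and 3 without Sham AL replicate 4), where 0.938% of all genes were. Against BWm 9 were, where 4.02% of all genes were: Fgf21, Tnfrsf10b, Xpot, Lonp1, Sqstm1, Atf6, Xbp1, Hspa5 and Dnajc3. Atf6, Xbp1, Hspa5 and Dnajc3 belong to the wider response to unfolded protein, so the 9 do not stand for ATF4 and CHOP alone. The list's medians in these comparisons were 0.31 and 0.43. None was called lower in either, and 1 was at an unadjusted p under 0.05 in each (Vldlr against Sham AL and Map1lc3b against BWm). In BWm against Sham AL, Map1lc3b was higher and Hspa5 lower. Fgf21, a liver hormone released in protein shortage, averaged 6.89 ± 0.52 (SD) in RYGB, 5.37 ± 0.21 in Sham AL and 5.52 ± 0.54 in BWm. It differed by 1.51 ± 0.23 (SE) from Sham AL (adjusted p = 0.0022) and 1.36 ± 0.25 from BWm (adjusted p = 0.0022). Sqstm1, the autophagy receptor p62, differed by 0.84 ± 0.11 (adjusted p = 0.00052) and 0.93 ± 0.11 (adjusted p = 0.00011). Tnfrsf10b, a death receptor induced by CHOP, was 1.65 ± 0.24 above BWm (adjusted p = 0.00038). It differed from Sham AL by 0.81 ± 0.23, which was not called (adjusted p = 0.092), and those groups overlapped. The BWm arrays read at most 3.14 for Tnfrsf10b, below the array medians, where signal over background is not known. The Tnfrsf10b differences thus hold for the RMA signal and not for the amount of RNA. Hspa5, the endoplasmic reticulum chaperone BiP, was lower in BWm than in Sham AL (-0.90 ± 0.15, adjusted p = 0.0036), was 1.28 ± 0.15 higher in RYGB than in BWm (adjusted p = 7.4e-05), and differed by 0.38 ± 0.14 between RYGB and Sham AL (adjusted p = 0.23).

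**Figure D5:**
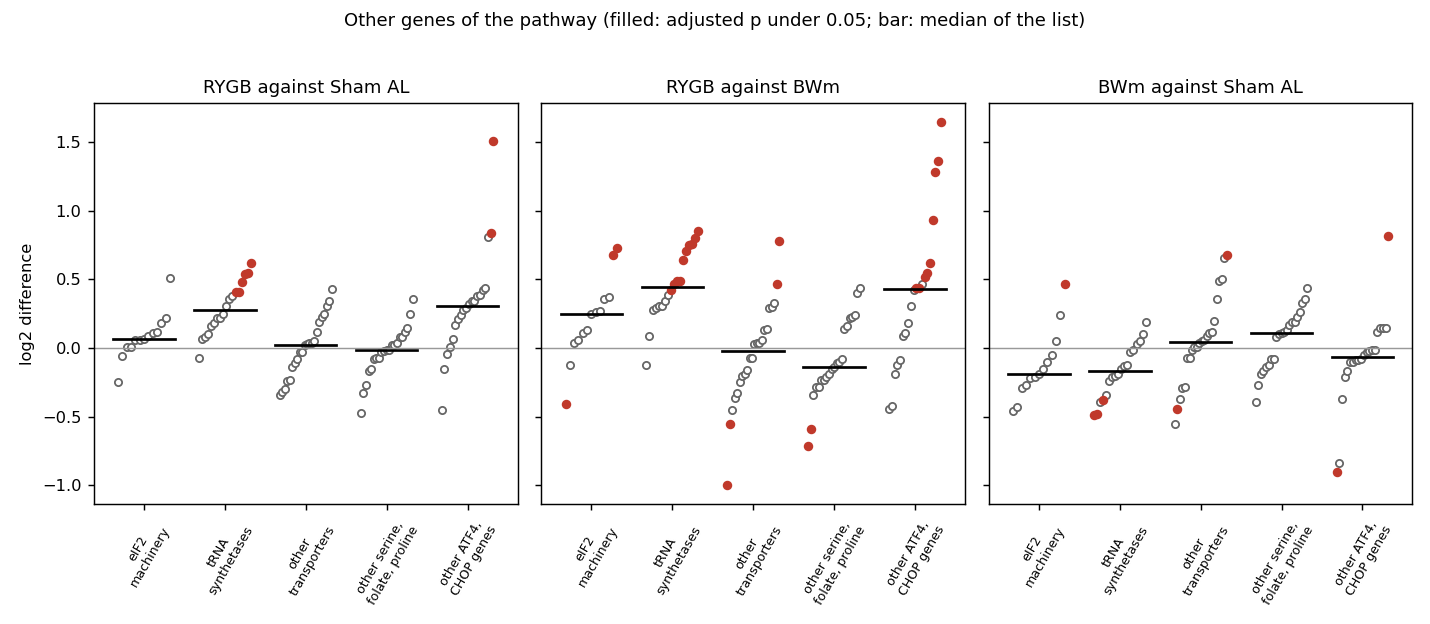
Log2 differences of the genes in 5 further lists of the pathway, 1 point per gene, with the median as a bar; filled points have a limma adjusted p under 0.05. The tRNA synthetases and the list of other ATF4 and CHOP genes have filled points above 0 in both RYGB panels. The second of these lists includes genes of the wider response to unfolded protein. The other enzymes of serine, folate and proline metabolism have filled points only below 0 against BWm.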

How the data were processed

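Liver RNA of 15 mice was hybridised to GeneChip Mouse Gene 2.0 ST arrays. The deposited values are log2 signals made by the authors with the robust multi-array average (RMA) in Affymetrix Expression Console 1.4.1.46, per the series' design text and the submitters' processing notes. RMA scales the arrays to one another, so a shift of the whole transcriptome would not be seen. The array's annotation version and genome build were not given in the sources used here. Signal over background is unknown, as scanner files were not used here.

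Of 41345 transcript clusters, 23521 had 1 symbol in the probe table, 1814 several and 16010 none; clusters with several or none were left out. Of the former, 23328 were found by Entrez number in RefSeq and 0 symbols changed. Taking the cluster with the highest mean for 1082 genes with several left 22180 genes. No value of a dim gene was removed. Levels of different genes were not compared, since probes differ in affinity.

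Groups came from the labels. All 15 arrays and 3 contrasts were fitted with limma 3.58.1 (lmFit, eBayes; R 4.3.3), with 12 residual and 5.85 prior degrees of freedom, two-sided, with Benjamini-Hochberg adjustment over all genes and intervals of 95% without it. The fit was tested on simulated data. Members, lists, motif and tests were chosen with earlier results of these data known. Values on every array were given for members called in any comparison, up to 4 genes of each other list were named by smallest p, and promoters were printed for members called in both RYGB comparisons that hold the motif. Promoters are RefSeq windows (GRCm38.p6), found for 30 of 35 members. Settings tried as alternatives were quantile normalization, a filter on level, array medians subtracted, a mean of clusters, all clusters, compared groups only, trended or robust priors, array weights, blocks for replicate or animal number, the methods' one-way analysis of variance, each array left out, and, chosen after seeing the data, only animals numbered above 60. The descriptions give animal numbers whose meaning is not stated, and 3 RYGB, 1 Sham AL and 0 BWm animals are numbered under 50; no scan date is given. Python 3.11.15, pandas 2.3.3 and matplotlib 3.10.9 made the tables and figures.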

Additional observations from a re-analysis of the deposited data

Results flagged for a closer look

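A single array lay far from the others of its group in 9 of 96 combinations of member and group, judged by its gap to the nearest array as a share of the group's range; chance flags about 1 in 20. Each is given in log2 units with the range of the other arrays. In RYGB replicate 1, Atf4 was low at 7.45 (7.66 to 7.77) and Slc7a11 at 4.29 (6.08 to 6.98). Sham AL replicate 4, the array with adrenal and brown fat transcripts, was high for Slc7a1 at 5.95 (4.33 to 4.66) and for Slc1a5 at 7.97 (4.47 to 5.39). Atf4 was low in Sham AL replicate 3, at 7.02 (7.35 to 7.47). Cebpb was low in RYGB replicate 3, at 6.36 (7.29 to 7.52), and Shmt2 in RYGB replicate 5, at 10.26 (10.56 to 10.64). Among the BWm arrays, Nupr1 was high in replicate 1, at 6.14 (4.84 to 5.03), and Phgdh low in replicate 3, at 4.08 (4.31 to 4.34). The cause was not tested in any of these.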

How the results depend on the processing

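No member reversed its direction under any alternative where it was called. Members called numbered 9, 15 and 2 for RYGB against Sham AL, RYGB against BWm and BWm against Sham AL. The methods' one-way analysis of variance gave 0, 9 and 1 after Benjamini-Hochberg adjustment and 12, 15 and 1 at their own threshold. In BWm against Sham AL a filter on level gave 4 (2 higher, 2 lower) with 26 members tested, and only animals numbered above 60, chosen after seeing the data, gave 1. Under that filter, which tests fewer genes, the median of the synthesis enzymes was -0.06 against Sham AL and 0.42 against BWm, and that of the stress regulators 0.30 against BWm. Leaving out each array in turn gave 5 to 11, 12 to 16 and 0 to 3 members: 5 against Sham AL without Sham AL replicate 2, and in BWm against Sham AL 1 without BWm replicate 2 and 0 without BWm replicate 3. The transporters' median in BWm against Sham AL ran from -0.43 to 0.15. The replicate number as a block gave 7, 14 and 2. Same-numbered arrays of different groups deviated together with correlations of -0.17 to 0.19. Matched mice need not deviate together, so these values cannot tell whether the numbers pair them. Atf3, Ddit3, Nupr1, Slc7a11 and Trib3 kept both RYGB calls whichever array was left out. Over all single-member values and alternatives, 2658 kept their side of the threshold, 75 lost a call and 33 gained one. The number of arrays, not a depth, limits what can be called, and signal over background is not known.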
